A study of Arabidopsis thaliana with 6 samples.

Results

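The 9 genes described here encode the root growth factor (RGF) module of Arabidopsis thaliana: the peptide genes RGF1, RGF2 and RGF3, the tyrosine sulfotransferase TPST, and the receptor kinase genes RGI1, RGI2, RGI3, RGI4 and RGI5. They were chosen by locus from the module's known components, not by their values, and make up 9 of the 37336 gene identifiers in each count file. All 9 were present in the 6 files and all 9 passed the filter on low counts. The series holds RNA sequencing counts from the outermost 0.5 mm of primary root tips, with 3 libraries from wild type (Col-0) and 3 from the hsl2 mutant in the Col-0 ecotype, and was designed around root cap sloughing. Seedlings of both genotypes were 7 days old and grew on vertical agar plates without sucrose in 16 h of light and 8 h of dark. HSL2 encodes a HAESA-family receptor kinase, and the labels give neither its mutant allele nor the number of seedlings in a sample.

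RGF peptides, also named GOLVEN or CLEL peptides, are short secreted signals cut from the end of longer precursors. TPST, a Golgi enzyme, sulfates a tyrosine in them that they need for full activity. They are known for keeping the root meristem active: they bind the leucine-rich repeat receptor kinases RGI1 to RGI5, which act with SERK co-receptors and a mitogen-activated protein kinase cascade, and they shape the gradient of PLETHORA (PLT) transcription factors around the stem cells. The RefSeq gene table lists the receptor loci only as leucine-rich repeat receptor kinases, and publications may number them differently, so each receptor value below belongs to the locus printed with it rather than to the number.

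All 3 peptide genes had a higher mean in hsl2 and all 5 receptor genes a lower mean, with log2 differences between -0.46 and 0.42, and none of the 9 passed the test. Of all tested genes, 51.6% had a higher mean in hsl2 and 48.4% a lower one. Among genes as long as the receptor genes (3500 to 4500 bp of exon) 85.7% had a lower mean. Among genes as short as the peptide genes (500 to 1000 bp) 20.6% did. With all libraries the peptide and receptor genes lay on the same side as most genes of their length classes. TPST, at 0.024, did not: 58.6% of its class (2000 to 2500 bp) had a lower mean. Without the hsl2 1 library the median log2 difference was 0.33 for the peptide genes and 0.037 for their class. It was -0.14 for the receptor genes and -0.12 for their class. With an offset for gene length RGI1 changed to the higher side, at 0.089. In edgeR's quasi-likelihood test, 0 of the 9 genes had an adjusted p under 0.05, and 0% of all 17989 tested genes did. At an unadjusted p under 0.05, RGF2 and RGF3 were on the higher side, where 7.53% of all tested genes lay, and RGI3 on the lower side, where 6.01% lay. DESeq2 called 292 genes on the same counts, 1.62% of those tested, and 0 of the 9, and limma-voom called 0 genes. Fewer cells of a type and less RNA per cell cannot be told apart in such bulk samples.

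Library facts bear on these values. Total counts ran from 15051468 to 20468890 per library, and a count of 3, the limit that a count of 0 allows, corresponded to 0.147 to 0.199 CPM (counts scaled by TMM library size). HSL2 itself (AT5G65710) had 6.98 to 8.61 CPM in the wild type libraries and 7.61 to 9.81 CPM in the mutant ones, so its level did not mark the genotype. The root cap list fixed as a marker of this tissue (SMB, BRN1, BRN2, FEZ, RCPG and CEL5) had all 6 genes detected, with summed levels of 142 to 269 CPM in wild type and 104 to 141 CPM in hsl2. The stem cell niche list (WOX5, PLT1, PLT2 and AGL42) summed to 86.5 to 112 CPM in wild type and 67.9 to 115 CPM in hsl2. WOX5, the marker of the quiescent centre, lay between 0.243 and 0.854 CPM and was not tested. The hsl2 1 library held 69.2 CPM of the 4 green tissue genes against 4.87 to 12.8 CPM in the other 5 libraries. Root hair genes summed to 27.7, 32.7 and 46.1 CPM in wild type and to 46.0 to 52.3 CPM in hsl2, with the wild type 3 library on the hsl2 side. Xylem genes (XCP1, XCP2 and VND7) summed to 6.25, 8.31 and 14.1 CPM in wild type 1 to 3 and to 9.96, 19.9 and 23.2 CPM in hsl2 1 to 3. The part of these marker differences in the results below was not tested, and the sums do not tell cell numbers from RNA per cell.

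Gene length moved with the libraries too. Over the 925 tested genes with 3500 to 4500 bp of exon, the class that holds all 5 receptor genes, the hsl2 1 library lay at a median of -0.50 on the log2 scale against the other 5 libraries. Over the 1979 genes with 500 to 1000 bp, the class of the 3 peptide genes, it lay at 0.43. The other hsl2 libraries had medians of 0.0024 and 0.089 in the long class, and the wild type libraries 0.12, 0.22 and 0.066. In the comparison of genotypes, the long class had a median log2 difference of -0.22, with 85.7% of its genes lower in hsl2, and the short class had a median of 0.23, with 20.6% lower. All tested genes together had a median of 0.012, with 48.4% lower. Lengths come from the TAIR10.1 annotation of RefSeq.

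**Figure D1:**
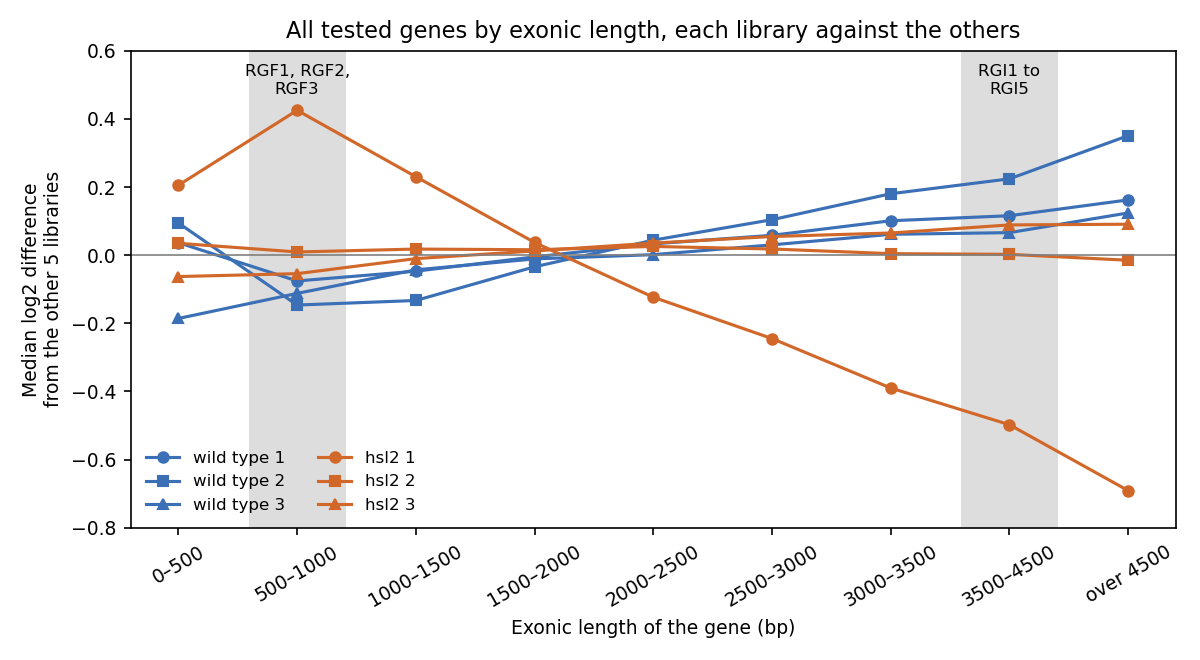
Median log2 difference of each library from the other 5 libraries (y axis) over all tested genes grouped by exonic length in bp (x axis), with wild type in blue, hsl2 in orange and a marker shape for each replicate number. The grey bands mark the classes of the peptide genes and of the receptor genes. The hsl2 1 line descends from 0.43 in the 500 to 1000 bp class to -0.50 in the 3500 to 4500 bp class, while the other lines stay nearer to 0.

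Among the peptide genes, RGF3 (AT2G04025) had the highest level. Wild type 1, 2 and 3 had 34.4, 26.1 and 29.0 CPM, and hsl2 1, 2 and 3 had 36.4, 36.2 and 40.1 CPM. The hsl2 libraries all lay above the wild type libraries, as they did for 11.3% of all tested genes. The means were 29.8 ± 4.201 and 37.6 ± 2.19 CPM (SD, n = 3 each), and the log2 fold change was 0.33 ± 0.14 (standard error, SE; edgeR adjusted p = 0.357). RGF2 (AT1G13620) had 9.79, 8.00 and 10.9 CPM in the wild type libraries 1 to 3, against 12.7, 12.8 and 12.9 CPM in the hsl2 libraries 1 to 3. Here too the groups did not overlap. The means were 9.55 ± 1.45 and 12.8 ± 0.111 CPM (SD, n = 3 each), with a log2 fold change of 0.42 ± 0.16 (SE; edgeR adjusted p = 0.339).

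RGF1 (AT5G60810), whose product is the best studied peptide of the family, was close to the limit of the data, with 12 to 23 counts per library. Its levels in wild type 1 to 3 were 0.787, 0.984 and 0.971 CPM, and those in hsl2 1 to 3 were 0.854, 0.859 and 1.505 CPM. Only the hsl2 3 library lay above the wild type range. The log2 fold change was 0.23 ± 0.38 (SE; edgeR adjusted p = 0.807), and it was -0.087 without hsl2 3.

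Set beside genes of their own length class, the peptide genes had a median log2 fold change, with all libraries, of 0.33 over the 3 genes against 0.23 over the class. Without the hsl2 1 library the 3 genes had a median of 0.33 and the class a median of 0.037. RGF2 then had a log2 fold change of 0.40 (edgeR, adjusted p = 0.347) and RGF3 0.33 (adjusted p = 0.359). In both fits the direction was the same and 0 of the 3 passed.

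TPST (AT1G08030), the enzyme that sulfates these peptides, had the smallest spread over the 6 libraries, relative to its mean, of the 9 genes. The wild type libraries 1 to 3 had 39.6, 45.3 and 40.5 CPM and the hsl2 libraries 1 to 3 had 40.2, 44.3 and 43.0 CPM. The groups overlapped throughout. The means were 41.8 ± 3.09 and 42.5 ± 2.11 CPM (SD, n = 3 each), and the log2 fold change was 0.024 ± 0.12 (SE; edgeR adjusted p = 0.943). With 2218 bp of exon it falls in a class (2000 to 2500 bp) whose median log2 fold change was -0.046.

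RGI3 (AT3G24240) had the highest level of the receptor genes and was the receptor gene whose groups did not overlap. Its levels were 226, 268 and 230.4 CPM in wild type 1 to 3, against 175, 189.8 and 199.6 CPM in hsl2 1 to 3. All hsl2 libraries lay below all wild type libraries, as they did for 9.44% of all tested genes. The means were 242 ± 22.9 and 188 ± 12.1 CPM (SD, n = 3 each), and the log2 fold change was -0.36 ± 0.13 (SE; edgeR adjusted p = 0.325). The value was -0.34 without the hsl2 1 library (adjusted p = 0.264), where the long class had a median of -0.12.

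RGI5 (AT1G34110) had the most negative value of the module. Wild type 1 to 3 had 68.1, 64.7 and 49.3 CPM, and hsl2 1 to 3 had 24.98, 51.7 and 55.4 CPM. The hsl2 1 library stood far below the others, and hsl2 2 and 3 lay within the wild type range. The means were 60.7 ± 10.02 and 44.0 ± 16.6 CPM (SD, n = 3 each), and the log2 fold change was -0.46 ± 0.26 (SE; edgeR adjusted p = 0.457), and -0.21 without hsl2 1.

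RGI4 (AT5G56040) also had its lowest value in hsl2 1. Wild type 1 to 3 had levels of 131, 178 and 163 CPM, against 92.9, 144 and 145 CPM in the hsl2 libraries 1 to 3. Wild type 1 lay below hsl2 2 and 3, so the groups overlapped. The log2 fold change was -0.30 ± 0.19 (SE; edgeR adjusted p = 0.497), and -0.14 without hsl2 1. RGI2 (AT5G48940) had 154, 145 and 135 CPM in wild type 1 to 3, against 101, 128 and 139.8 CPM in hsl2 1 to 3, with hsl2 3 above wild type 3. Its log2 fold change was -0.24 ± 0.15 (SE; edgeR adjusted p = 0.496), and -0.14 without hsl2 1. RGI1 (AT4G26540) had 73.3, 84.7 and 85.8 CPM in wild type 1 to 3, against 67.2, 73.9 and 79.8 CPM in hsl2 1 to 3. Its groups overlapped, and its log2 fold change was -0.14 ± 0.13 (SE; edgeR adjusted p = 0.636).

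**Figure D2:**
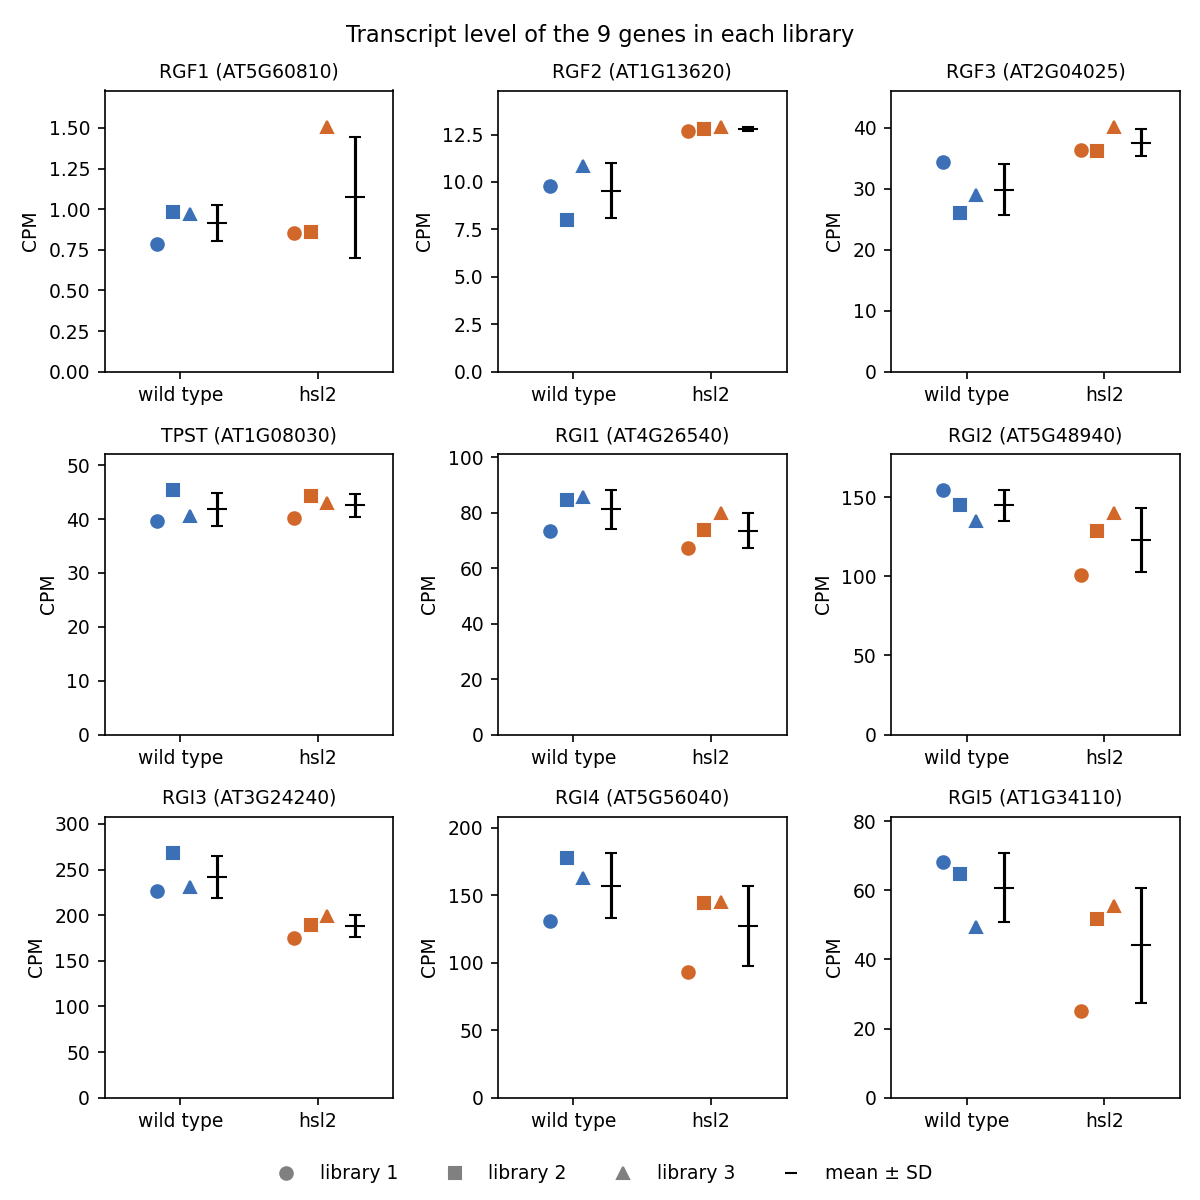
CPM (y axis, from 0) of each of the 9 genes in the 3 wild type libraries (blue) and the 3 hsl2 libraries (orange), with a marker shape for each library number and black bars for mean ± SD (n = 3). RGF2 and RGF3 have all hsl2 points above the wild type points, RGI3 has all below, and hsl2 1 (circle) is the lowest point of every receptor gene.

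The hsl2 1 library was the lowest of the 6 for each of the 5 receptor genes. It took that place for 30% of all tested genes, whatever their length. Over the 3500 to 4500 bp class of the receptor genes it had a median log2 difference of -0.50 from the other 5 libraries. Its level was 0.467 times the mean of hsl2 2 and 3 for RGI5, 0.643 times for RGI4, 0.750 times for RGI2, 0.874 times for RGI1 and 0.901 times for RGI3. Without hsl2 1 the 5 genes were still all on the lower side, with a median log2 fold change of -0.14 in place of -0.30, and 53.9% of all tested genes were on that side. The long class had a median of -0.12 in that fit and -0.22 with all libraries.

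An edgeR fit with an offset for gene length in each library, chosen after the data were seen, gave the receptor genes a median log2 fold change of -0.090. In it the values were -0.098 ± 0.12 for RGI3, -0.090 ± 0.13 for RGI4, -0.029 ± 0.10 for RGI2, -0.26 ± 0.18 for RGI5 and 0.089 ± 0.12 for RGI1 (log2 fold change ± SE). RGF2 was then at 0.23 ± 0.17 and RGF3 at 0.15 ± 0.15 (SE). With the offset, each of the 9 genes had overlapping groups, a count without a share of all tested genes beside it. Without the offset, 9.44% of all tested genes lay wholly below and 11.3% wholly above. With it, 0 of the 9 passed, where 0.00556% of all tested genes did. With the offset and without hsl2 1, RGI3 was at -0.21 ± 0.096, RGF2 at 0.36 ± 0.16 and RGF3 at 0.29 ± 0.13 (SE), and the other receptor genes lay between -0.085 and 0.0057.

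**Figure D3:**
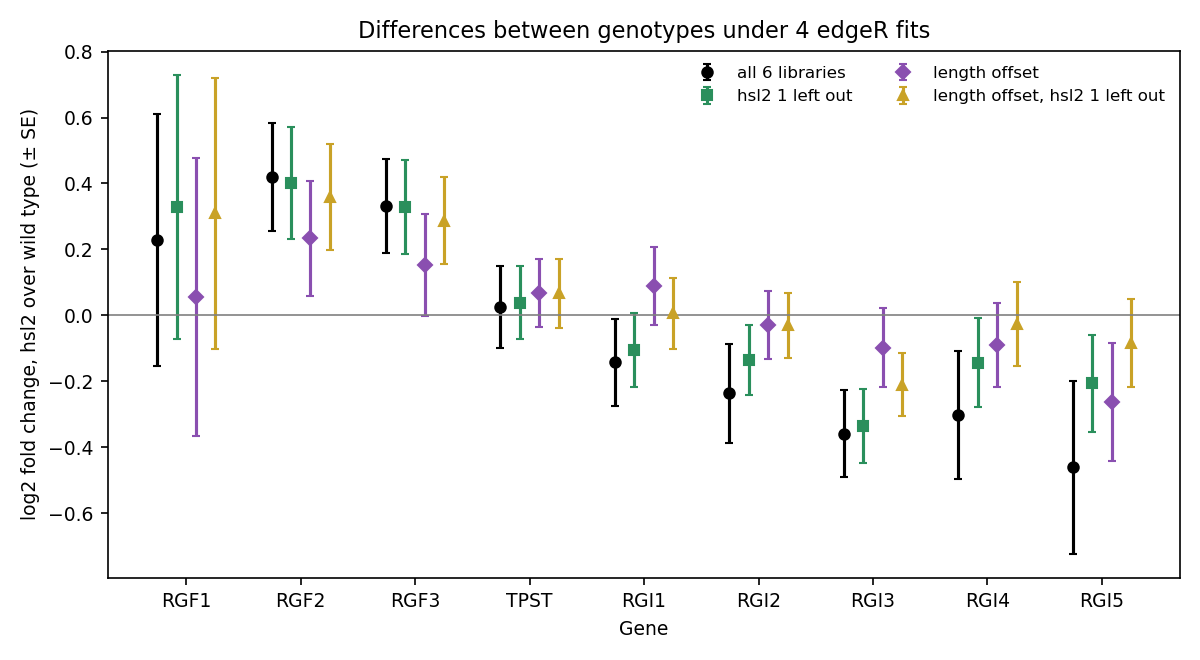
Log2 fold change of hsl2 over wild type with its standard error (y axis) for the 9 genes (x axis) in 4 edgeR fits: all 6 libraries, hsl2 1 left out, a gene length offset, and both together. RGF2 and RGF3 stay above 0 in each fit, and RGI1 moves from -0.14 with all libraries to 0.089 with the length offset.

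Levels of different genes compare only per length, and for this CPM was divided by the exonic length in kilobases. On that scale of levels, RGI3 was highest at 53.2 ± 8.28 CPM per kb (SD over 6 libraries), above 87.8% of tested genes. RGF3 followed at 40.2 ± 6.19, RGI4 at 37.2 ± 7.64 and RGI2 at 36.7 ± 5.09 CPM per kb. RGI3 lay above RGF3 in 6 of 6 libraries, though their ranges met. RGF3, RGI4 and RGI2 were not separated beyond their spread: RGF3 lay above RGI4 in 4 of 6 libraries and RGI4 above RGI2 in 3 of 6.

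On this scale the other genes lay lower. RGI2 lay above RGI1 in 6 of 6 libraries with no overlap of ranges, RGI1 being at 20.5 ± 1.92 CPM per kb and TPST at 19.0 ± 1.08 CPM per kb. RGI1 and TPST overlapped, as did RGF2 at 14.0 ± 2.503 and RGI5 at 13.2 ± 3.87 CPM per kb. RGF1 was lowest at 1.71 ± 0.450 CPM per kb, above 12.8% of tested genes and far under the range of every other gene of the module. With the coding length in place of the exonic length, RGF3 had the highest level of the 9, at 101 CPM per kb against 62.7 for RGI3. Its 839 bp of exon hold 333 bp of coding sequence, where the 4042 bp of RGI3 hold 3426 bp. RGF2 was then at 33.8 CPM per kb of coding length, above TPST at 28.1, RGI1 at 23.6 and RGI5 at 16.3 and nearer to RGI2 at 39.3, so its place among the lower genes holds only per exonic length.

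**Figure D4:**
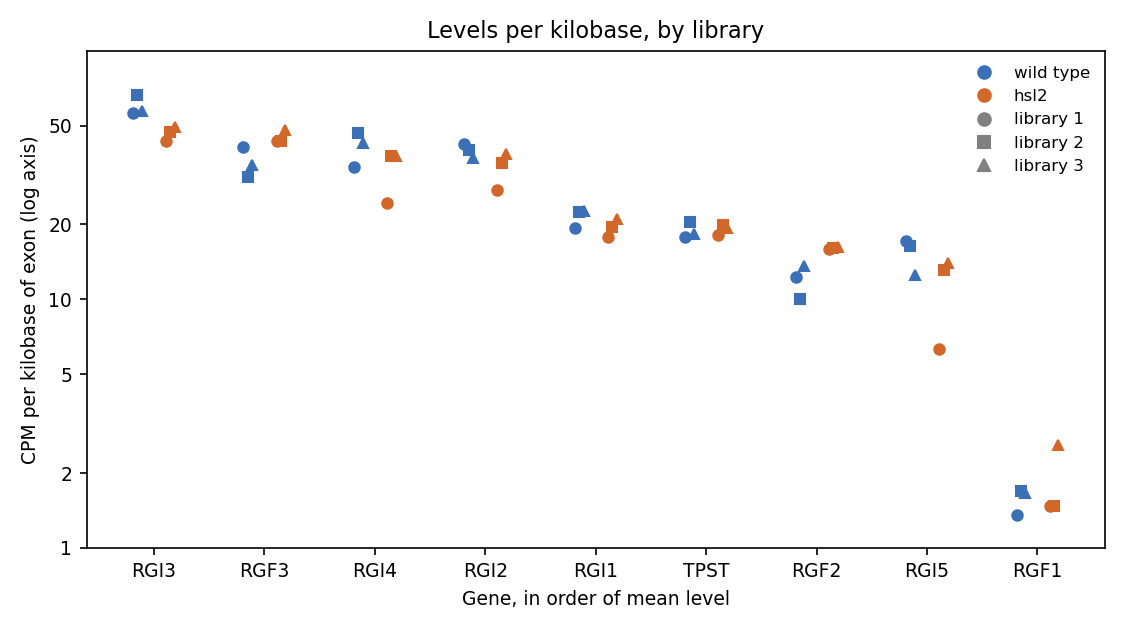
Level of each gene in CPM per kilobase of exon (y axis, log scale) in the 6 libraries, ordered by mean level (x axis), wild type in blue and hsl2 in orange. RGI3 lies highest at a mean of 53.2, RGF3, RGI4 and RGI2 overlap between 24.3 and 47.8, and RGF1 lies alone at 1.35 to 2.59.

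Within the receptor set RGI3 had the largest share and RGI5 the smallest in every library. RGI3 made up 33.1% ± 2.19 (SD, n = 6) of the summed receptor level per kb, RGI4 23.0% ± 2.14, RGI2 22.9% ± 1.53, RGI1 12.9% ± 1.23 and RGI5 8.10% ± 1.66. RGI5 had its lowest share, 5.29%, in hsl2 1 and lay between 7.26% and 10.2% elsewhere. The summed receptor level per kb was 3.10, 4.47 and 3.44 times that of RGF1 to RGF3 in wild type 1, 2 and 3, and 1.97, 2.51 and 2.41 times in hsl2 1, 2 and 3. These ratios did not overlap between genotypes. After the length offset they were 2.77, 3.58 and 3.08 in wild type and 3.37, 2.53 and 2.23 in hsl2, and overlapped. Per kb of coding length, an alternative chosen after the data were seen, they were 1.44, 2.098 and 1.61 in wild type and 0.916, 1.17 and 1.13 in hsl2, so the size of the ratio depends on the length used.

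The rest of the peptide family helps to place RGF1 to RGF3. Of the 8 other family genes, 7 had at least 1 count and 5 were tested. In the order wild type, then hsl2, RGF4 (AT3G30350) was at 33.0 ± 2.11 and 35.5 ± 5.80 CPM, RGF8 (AT2G03830) at 7.24 ± 1.23 and 9.71 ± 1.96 CPM, GLV9 (AT5G15725) at 5.62 ± 0.984 and 8.17 ± 2.47 CPM, and RGF7 (AT3G02240) at 1.498 ± 0.889 and 1.66 ± 0.588 CPM (SD, n = 3 each). RGF6 had 0 counts in all 6 libraries, and RGF9 and GLV8 had at most 3 counts in any library. RGF3 and RGF4 together with RGF2 made up most of the family's level per kb: 33.8% ± 1.74, 30.6% ± 3.20 and 11.8% ± 1.03 (SD, n = 6). RGF1 made up 1.44% ± 0.318.

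All 5 tested family genes outside RGF1 to RGF3 had a higher mean in hsl2 (median log2 fold change 0.42, and 0 of 5 past the test), on a side where 51.6% of all tested genes lay. They also have between 549 and 950 bp of exon, in the class with a median of 0.23. With the length offset their median was 0.20 and 3 of 5 were on the higher side. GLV9 had a log2 fold change of 0.54 ± 0.25 with all libraries (SE; edgeR adjusted p = 0.376), and its groups overlapped. The largest value of the 5, named after the values were seen, was 1.03 ± 0.50 for RGF5 (AT5G51451; SE; edgeR adjusted p = 0.396). RGF5 had 6 to 24 counts per library, and its groups overlapped. RGF8 was the 1 gene of the 5 with all hsl2 libraries above wild type, as 11.3% of all tested genes were. Without hsl2 1 and wild type 3, 7.2% of all tested genes passed, with 0 of the 9 module genes, 1 of these 5 (GLV9) and 1 of the 4 SERK co-receptor genes (SERK2) among them. In chi-square per degree of freedom wild type 3 lay at 12.7 and 13.3 from hsl2 3 and hsl2 2, against 17.003 and 21.5 from wild type 1 and wild type 2, so that fit drops a wild type library that resembles hsl2, and its calls are no separate support.

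**Figure D5:**
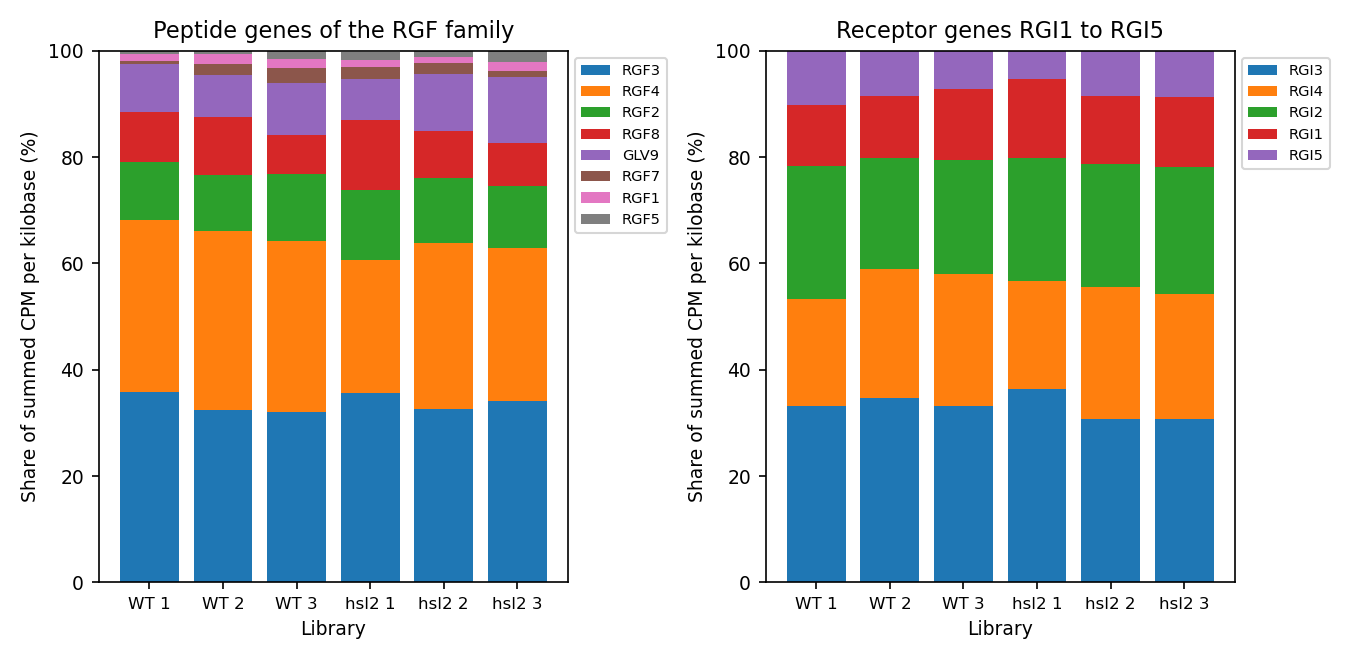
Share of the summed CPM per kilobase (y axis, percent) taken by each gene of the peptide family (left; genes under 0.5% are not drawn) and of the receptor set (right) in the 6 libraries (x axis; WT is wild type). RGF3 takes 31.96% to 35.9% and RGF4 25.03% to 33.8% of the peptide family, and RGI5 takes its smallest part, 5.29%, in hsl2 1.

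Genes that act after or beside the receptors had 0 called in each list in the full comparison, where 0% of all 17989 tested genes were called. Of the 10 downstream genes and regulators, 7 had a lower and 3 a higher mean in hsl2, where 48.4% of all tested genes had a lower one. The median log2 fold change of the 10 was -0.11, or 0.047 without hsl2 1. The ubiquitin proteases UBP13 and UBP12, which stabilise an RGF receptor, had means of 169 ± 3.31 and 156 ± 1.92 CPM among wild type libraries, against 155 ± 27.0 and 145 ± 36.1 CPM among hsl2 libraries (SD, n = 3 each). RITF1, a transcription factor that acts after RGF1, was at 96.4 ± 27.3 and 112 ± 11.2 CPM, and the kinase MPK6 at 90.0 ± 5.61 and 90.0 ± 16.1 CPM (SD, n = 3 each). PLT1 and PLT2, the PLETHORA genes of the stem cell niche, had log2 fold changes of -0.31 ± 0.24 and -0.12 ± 0.22 (SE). Without hsl2 1 the values were -0.088 for PLT1 and 0.034 for PLT2.

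The SERK co-receptor genes had 4 of 4 members with a lower mean, and their median was -0.28. Among all tested genes 48.4% had a lower mean. In the class with 2500 to 3000 bp of exon, which holds all 4, 69.3% did, with a median of -0.11. With the length offset the SERK median was -0.19 and 3 of 4 were lower, with BAK1 at 0.042 and SERK1 at -0.028. For wild type and hsl2 in turn, BAK1 was at 77.5 ± 4.56 and 71.8 ± 4.95 CPM, SERK1 at 38.6 ± 1.91 and 35.4 ± 0.875 CPM, SERK2 at 27.7 ± 1.54 and 20.4 ± 2.18 CPM, and SERK4 at 9.33 ± 0.353 and 6.87 ± 1.27 CPM (SD, n = 3 each). SERK1, SERK2 and SERK4 had all hsl2 libraries below all wild type libraries, a place held by 9.44% of all tested genes. For SERK2 the log2 fold change was -0.45 ± 0.14 (SE; edgeR adjusted p = 0.282). With the length offset it was -0.35. The subtilase genes whose enzymes cut GOLVEN precursors, SBT6.1 and SBT6.2, had log2 fold changes of -0.15 and -0.30. With the length offset these were 0.038 and -0.025, and without hsl2 1 they were -0.037 and -0.22.

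TPST also serves other sulfated peptides, and of 13 genes of those systems 7 were tested, 4 with a lower and 3 with a higher mean in hsl2, and 0 called. Among all tested genes, 48.4% had a lower mean and 0% were called. In the same order of genotypes, the phytosulfokine precursor gene PSK1 was at 37.1 ± 3.94 and 49.7 ± 14.3 CPM, its receptor genes PSKR1 at 27.9 ± 4.61 and 21.8 ± 0.992 CPM and PSKR2 at 27.5 ± 2.90 and 20.1 ± 2.90 CPM, and the receptor gene GSO1 at 6.91 ± 1.86 and 7.79 ± 2.81 CPM (SD, n = 3 each). The median over the 7 genes was -0.35, and -0.13 with the length offset. For 4 of the 7, PSKR1 and PSKR2 among them, all hsl2 libraries lay below wild type, and for 1 all lay above. Of all tested genes, 9.44% lay wholly below and 11.3% wholly above. The most negative value of the list, named after the values were seen, was that of the sulfated peptide gene PSY1, at 2.88 ± 0.768 and 1.34 ± 0.337 CPM on 16 to 63 counts per library, with all hsl2 libraries below wild type. Its log2 fold change was -1.11 ± 0.33 (SE; edgeR adjusted p = 0.261), and -1.32 with the length offset. The most positive, also named after its values were seen, was that of the phytosulfokine precursor gene PSK3, at 5.06 ± 0.445 and 7.65 ± 0.636 CPM, with all hsl2 libraries above wild type. Its log2 fold change was 0.60 ± 0.18 (SE; edgeR adjusted p = 0.272), and 0.41 with the length offset.

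Across the 6 libraries the receptor genes varied together. Pearson's r of log2 CPM lay between 0.61 and 0.98 for the 10 receptor pairs, highest for RGI2 with RGI5. RGF2 and RGF3 had r = 0.85, and RGF2 and RGI3 had r = -0.93. Taken within genotypes, as deviations from each genotype's mean, these RGF2 pairs had 0.52 and -0.71. The receptor pairs then lay between 0.41 (RGI1 with RGI2) and 0.98 (RGI2 with RGI5). These points share 6 libraries, the genotype difference and the length trend, and are a description. The tested genes most like RGF3 were CLE27 (AT3G25905), AT4G06995 and AT3G19460, each with r = 0.99 over 6 libraries, where 25 of 17980 genes reached 0.95. The genes most like RGI3 were AT5G44582, CIA2 (AT5G57180) and AT5G10690, with r from 0.99 to 0.998, where 104 of 17980 genes reached 0.95.

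In the TAIR10.1 annotation 3 of the 9 genes overlap a gene on the opposite strand. The neighbour of RGF2, AT1G13630, had 37 to 108 counts per library where RGF2 had 130 to 253, that of RGI1, AT4G26542, had 18 to 36, and that of RGI5, AT1G34100, had 0 in all 6. The libraries were stranded, but the strand setting of the counting is not given in the sources used here, so reads of such pairs may not be fully told apart.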

How the data were processed

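Raw counts of reads per gene were deposited by the authors, 1 file per library, neither normalized nor pooled. Per the submitters' processing notes, Trimmomatic 0.33, STAR 2.5.1b and featureCounts were used. The sources used here give no genome build, annotation or strand setting, so no coordinates or sequences are printed. Per the labels' protocols, RNA was extracted with Trizol and an RNeasy kit, and libraries were stranded TruSeq.

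Groups came from the sample titles. Counts were fitted in R 4.3.3 with edgeR 4.0.16 (filterByExpr, TMM, quasi-likelihood F-test, genotype as the only term, 4 residual degrees of freedom), with Benjamini-Hochberg adjustment over all 17989 tested genes and a threshold of 0.05. The standard error of a log2 fold change was taken as its size over the root of F. CPM used TMM library sizes, and correlations used log2(CPM + 0.5). Exonic and coding lengths came from TAIR10.1, where 37051 of 37336 identifiers matched. Alternatives included DESeq2 1.42.0 and limma-voom (limma 3.58.1). The length offset was a lowess curve of each library's log2 deviation on log2 exonic length, added after the data were seen. The fits were run on simulated counts with known changes as a check of the code, which does not bear on the results above.

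The genes and lists were chosen with earlier results of these data known. All 9 module genes were named whatever their result, and from each other list the 4 genes with the highest mean CPM. PLT1, PLT2, PSK3, PSY1, RGF5, SERK genes, subtilases and genes at or near 0 were named in addition, after their values were seen. The labels do not say whether samples of a genotype were grown separately, and p-values reflect only how far these samples differ, in part perhaps for technical reasons. No library duplicated another: the chi-square per degree of freedom between pairs was at least 6.17. Same-numbered libraries deviated together with correlations of 0.15, 0.082 and 0.0062, so the numbers were not treated as pairs. A further marker list is not reported here.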

Additional observations from a re-analysis of the deposited data

How the results depend on the processing

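Under 16 alternatives 0 of the 9 module genes passed, and 5 had a lower mean in hsl2 in most, with 4 under the length offsets and 6 without wild type 1, hsl2 2 or hsl2 3. RGF2, RGF3, RGI2, RGI3, RGI4 and RGI5 kept their direction in all 16, with ranges of 0.23 to 0.52, 0.15 to 0.43, -0.34 to -0.029, -0.42 to -0.098, -0.43 to -0.028 and -0.66 to -0.085. With 1 library left out, RGF1 ranged from -0.087 (without hsl2 3) to 0.38, and TPST from -0.026 (without wild type 1) to 0.086, with -0.0067 without hsl2 2. RGI1 changed sign with the length offset (0.089) and with the offset and hsl2 1 left out (0.0057). The count of all genes past the threshold was 0 with all libraries, 0 to 55 with 1 library left out (55 without wild type 3), 110 with no filter, 292 with DESeq2, 1 with the length offset and 1311 without hsl2 1 and wild type 3. The cause was not tested. With the replicate number as a block 52 genes passed, and 0 of the 9. Of the 9 places in the order of levels, 5 were kept with coding length and 5 to 9 with 1 library left out. Counting error limits RGF1 above all, at 12 to 23 counts.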
